A study of Rattus norvegicus with 14 samples.

Results

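The genes described here are 7 subunits of the voltage-gated sodium channel, Scn1a, Scn2a, Scn3a, Scn8a, Scn2b, Scn3b and Scn4b, taken by name from the 22601 genes that the deposited tables list. All 7 were found, and all 7 reached 1 FPKM (read fragments scaled to transcript length and library size) in at least 4 libraries, so they were among the 12744 genes tested. They were measured by RNA sequencing in hippocampal tissue of wild-type Wistar rats weighing 180 to 220 g per the labels. The 14 libraries fall into 3 groups. These are the PTZ-induced seizure model given Q808 (n = 5, PTZ+Q808), the same model given vehicle (n = 5, PTZ) and vehicle-treated control rats (n = 4). PTZ (pentylenetetrazole) is a convulsant that blocks GABA-A receptors, and the drug under test is given in the labels under the code name Q808. Age, sex, doses and the time between PTZ and tissue collection are not given in the sources used here, so the groups stand for a chemically induced seizure at an unstated stage.

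Voltage-gated sodium channels open on depolarisation and carry the rising phase of the action potential. Each channel has 1 large alpha subunit that forms the pore, and smaller beta subunits that alter its gating, its delivery to the membrane and its anchoring to other proteins. In the brain, Scn1a is known for supporting the firing of inhibitory interneurons, while Scn2a and Scn8a serve the axon initial segment of principal neurons. Scn3a is expressed most before and around birth in rodents. Scn2b and Scn4b proteins are joined to the alpha subunit by a disulphide bond and Scn3b binds without one. Several antiseizure drugs in use act on these channels, and variants of Scn1a, Scn2a, Scn3a and Scn8a orthologues cause epilepsies in people. Whether Q808 acts on them was not measured.

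None of the 7 transcripts passed the test in any of the 3 comparisons. Scn2a, which encodes the alpha subunit of developing and proximal axons, came nearest, with means of 46.2 ± 5.79 FPKM in PTZ+Q808 (SD, n = 5), 44.7 ± 5.07 in PTZ (n = 5) and 37.2 ± 3.55 in control (n = 4). Scn4b was dominated by 1 control library that also carried striatal transcripts. Within groups, Scn1a, Scn2a and Scn8a varied together from library to library. The libraries above their group means in all 3 had a lower sum of FPKM over all genes than those below. The part of this sum was not tested.

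The genes lie on 3 rat chromosomes in the RefSeq table of assembly GRCr8. Scn1a, Scn2a and Scn3a are on chromosome 3, where Scn3a is the protein-coding neighbour of Scn2a, and Scn1a neighbours the peripheral sodium channel gene Scn9a. Scn2b and Scn4b are neighbours on chromosome 8, which also holds Scn3b, and Scn8a is on chromosome 7. The same source holds a window of 250 bases before and 50 bases after the annotated start for 5 of the 7 genes (Scn2a, Scn3a, Scn8a, Scn2b and Scn4b). Those of the alpha subunit genes are printed from RefSeq (build GRCr8, 5′ to 3′ on the strand of the gene). The correlation over libraries passed for Scn2a and Scn8a and did not pass for the neighbours Scn2a and Scn3a (r = 0.29). That does not show that the neighbours vary apart, and the difference between the 2 pairs was not tested. The windows are chr3:70710706-70711005 on the plus strand for Scn2a, chr3:70666149-70666448 on the minus strand for Scn3a and chr7:133860977-133861276 on the plus strand for Scn8a. Capitals mark GGGCGG, the GC box, and TGANTCA, the AP-1 motif, on either strand.
Scn2a: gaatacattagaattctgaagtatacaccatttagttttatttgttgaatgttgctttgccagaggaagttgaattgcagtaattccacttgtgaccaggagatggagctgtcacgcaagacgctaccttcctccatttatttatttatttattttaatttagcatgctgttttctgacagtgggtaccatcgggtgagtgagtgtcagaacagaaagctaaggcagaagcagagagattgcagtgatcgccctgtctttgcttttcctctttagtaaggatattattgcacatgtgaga
Scn3a: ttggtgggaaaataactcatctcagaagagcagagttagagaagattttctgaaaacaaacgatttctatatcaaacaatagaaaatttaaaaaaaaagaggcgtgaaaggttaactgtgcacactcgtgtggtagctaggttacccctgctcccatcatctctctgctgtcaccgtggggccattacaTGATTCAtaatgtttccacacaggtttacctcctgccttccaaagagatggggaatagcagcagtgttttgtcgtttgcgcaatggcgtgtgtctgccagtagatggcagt
Scn8a: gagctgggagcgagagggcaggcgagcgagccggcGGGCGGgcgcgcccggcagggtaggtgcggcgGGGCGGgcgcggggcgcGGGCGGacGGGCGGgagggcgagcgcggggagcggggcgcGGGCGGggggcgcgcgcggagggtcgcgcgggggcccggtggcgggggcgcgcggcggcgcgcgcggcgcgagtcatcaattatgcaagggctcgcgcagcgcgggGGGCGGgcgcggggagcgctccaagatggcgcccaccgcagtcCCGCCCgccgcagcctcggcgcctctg
The Scn8a window held 7 matches to the GC box and the other 4 windows held 0, while 33.1% of the 33469 promoter windows of the table hold at least 1. Scn3a held 1 match to the AP-1 motif and the other 4 windows held 0, against 7.33% of all windows. The core of a cAMP response element (TGACG, 21.2% of all windows) and a fixed form of the RE1 motif (0.00598%) were searched on both strands too and had 0 matches in the 5 windows. G and C made up 84.7% of the Scn8a window, 39.3% of that of Scn2a and 43.3% of that of Scn3a, where the median of all windows was 51.7%. These matches describe letters and were not tested as binding sites.

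The deposited values were used as the authors scaled them. The sum of FPKM per library ran from 383126 to 419358, and Spearman correlations across genes between libraries ran from 0.980 to 0.988. The tables give no read counts. The steps between low values placed the depth of the 14 libraries within 0.858 to 1.04 of that of control replicate 1. The absolute depth is unknown, so no counting interval is given. Control replicate 2 stood apart in striatal transcripts, and 3 libraries were low in the choroid plexus transcript Ttr (control replicate 3, PTZ replicate 2 and PTZ+Q808 replicate 1, 54.5 to 329 FPKM against 1315 to 7125 in the other 11). PTZ+Q808 replicate 3 held pituitary transcripts, with a summed level of 684 FPKM over 4 markers. Neuronal markers were high in every library, with a summed level over 5 markers of 1538 to 1721 FPKM in PTZ+Q808, 1350 to 1664 in PTZ and 1332 to 1560 in control. Summed over 5 meninges markers, the level was 49.5 to 129 FPKM in PTZ+Q808, 53.3 to 169 in PTZ and 49.9 to 66.4 in control. Over 5 oligodendrocyte markers it was 2422 to 4585, 3476.5 to 5156 and 3317 to 6584 FPKM in the same order. The part of these tissues in the comparisons was not tested. In tissue of this kind, fewer cells of a type and less RNA per cell cannot be told apart.

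FPKM is scaled by length, so levels of the 7 genes are set side by side here. The part of RNA quality in the levels of the long transcripts was not tested. The full order was the same in 10 of 14 libraries and differed in PTZ replicates 1, 2 and 3 and control replicate 2. Scn3b was highest in 14 of 14 libraries, with 120 to 194 FPKM, and Scn2b, at 85.8 to 111 FPKM, was next in all of them. Then came Scn2a (33.6 to 53.3 FPKM) and Scn8a (20.3 to 51.9 FPKM), whose ranges overlapped. Scn2a was the higher of this pair in 11 of 14 libraries, with a median ratio of 1.07, and the exceptions were PTZ replicates 1, 2 and 3. Scn4b followed, at 6.91 to 12.6 FPKM in 13 libraries and 89.1 FPKM in control replicate 2, where it exceeded Scn2a. Scn1a, at 4.66 to 9.63 FPKM, lay below Scn4b and above Scn3a (2.54 to 5.79 FPKM) in 14 of 14 libraries each. The coefficient of variation over all libraries was smallest for Scn2b (6.20%) and was 24.6% for Scn8a and 24.4% for Scn1a.

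**Figure D1:**
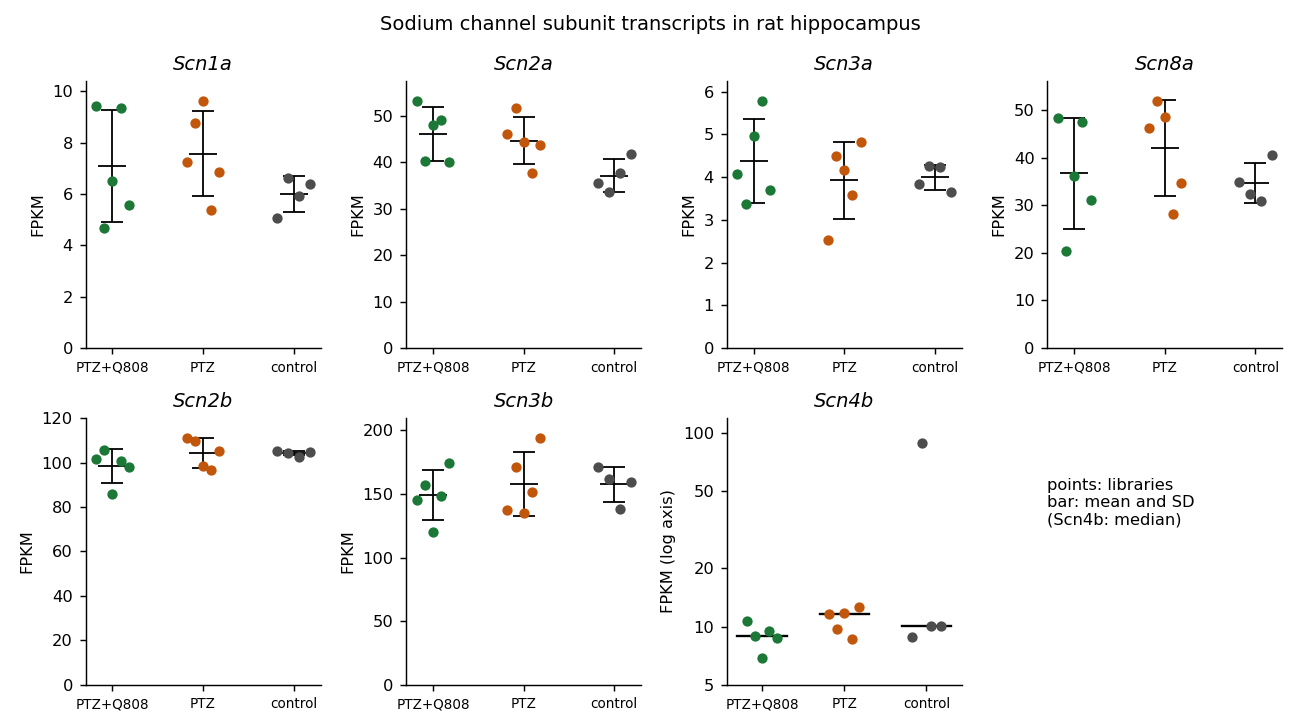
FPKM of the 7 sodium channel subunit transcripts, with 1 point per library, in PTZ+Q808 (n = 5), PTZ (n = 5) and control (n = 4). Bars give the mean and SD, except for Scn4b, which is on a log axis with the median. The 3 groups overlap for every gene, and control replicate 2 stands at 89.1 FPKM for Scn4b.

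Scn2a had 53.3, 40.3, 48.0, 49.2 and 40.1 FPKM in PTZ+Q808 replicates 1 to 5. In PTZ replicates 1 to 5 it had 46.2, 51.7, 44.4, 37.6 and 43.7 FPKM, and in control replicates 1 to 4 it had 35.6, 33.6, 37.6 and 41.9 FPKM. Control replicate 4 lay above 2 PTZ+Q808 libraries and 1 PTZ library, so the groups overlapped. PTZ+Q808 was 0.30 ± 0.10 higher than control on the log2(FPKM + 1) scale (SE, 95% interval 0.09 to 0.52, unadjusted p = 0.0092 and adjusted p = 0.107 by limma with Benjamini-Hochberg adjustment). PTZ was 0.26 ± 0.10 higher than control (interval 0.04 to 0.47, adjusted p = 0.564 by limma), with the same control libraries in both comparisons. Between PTZ+Q808 and PTZ the difference was 0.04 ± 0.09 (interval -0.16 to 0.25, adjusted p = 0.963 by limma).

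Scn8a, the alpha subunit of mature axon initial segments and nodes of Ranvier, had 48.4, 20.3, 36.2, 47.4 and 31.1 FPKM in PTZ+Q808 replicates 1 to 5. The PTZ libraries had 46.3, 51.9, 48.6, 28.1 and 34.7 FPKM and the control libraries 34.9, 32.4, 31.0 and 40.4 FPKM. Both seizure-model groups held libraries above and below all controls. The log2 change was 0.02 ± 0.23 in PTZ+Q808 versus control (SE, adjusted p = 0.969), 0.24 ± 0.23 in PTZ versus control (adjusted p = 0.80) and -0.22 ± 0.21 in PTZ+Q808 versus PTZ (adjusted p = 0.924), all by limma. The interval of the last difference, -0.68 to 0.24, includes changes in either direction.

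Scn1a, the subunit tied to interneuron firing, had 9.42, 4.66, 6.50, 9.35 and 5.55 FPKM in PTZ+Q808 replicates 1 to 5. It had 7.23, 8.78, 9.63, 5.39 and 6.84 FPKM in PTZ and 5.07, 6.63, 5.92 and 6.38 FPKM in control. The 4 controls fell within the range of the PTZ+Q808 libraries. Differences were 0.17 ± 0.18 for PTZ+Q808 versus control, 0.28 ± 0.18 for PTZ versus control and -0.10 ± 0.17 for PTZ+Q808 versus PTZ (log2, SE), none of which passed by limma (adjusted p = 0.644, 0.724 and 0.954 in this order). Summed over 7 inhibitory neuron markers, the level was 404 to 477 FPKM in PTZ+Q808, 398 to 471 in PTZ and 413 to 521 in control.

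Scn3a, the perinatal subunit, was the lowest of the 7, with 4.08, 3.36, 4.96, 5.79 and 3.70 FPKM in PTZ+Q808 replicates 1 to 5. The PTZ libraries had 2.54, 4.50, 4.17, 3.58 and 4.82 FPKM and the controls 3.85, 4.25, 4.24 and 3.66 FPKM. The controls sat inside the range of each of the other groups. Log2 changes were 0.09 ± 0.15 in PTZ+Q808 versus control, -0.04 ± 0.15 in PTZ versus control and 0.13 ± 0.14 in PTZ+Q808 versus PTZ (SE, adjusted p = 0.786, 0.961 and 0.931 in this order by limma). The pseudocount of 1 shrinks these changes more than those of the other members.

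Among the beta subunits, Scn2b had 102, 106, 85.8, 101 and 97.9 FPKM in PTZ+Q808 replicates 1 to 5. It had 111, 109.8, 98.3, 96.4 and 105 FPKM in PTZ and 105, 104, 103 and 105 FPKM in control. The controls lay close together within the PTZ range, and the lowest library of all was PTZ+Q808 replicate 3, the library with pituitary transcripts. The differences had the narrowest intervals of the members, at -0.22 to 0.04 in PTZ+Q808 versus control, -0.13 to 0.13 in PTZ versus control and -0.21 to 0.04 in PTZ+Q808 versus PTZ (log2, 95%). Their adjusted p was 0.45, 0.993 and 0.863 by limma in this order.

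Scn3b, the beta subunit of highest level, had 146, 157, 119.9, 149 and 174 FPKM in PTZ+Q808 replicates 1 to 5. Levels were 137, 171, 135, 151 and 194 FPKM in PTZ and 171, 161, 139 and 159.6 FPKM in control. PTZ+Q808 replicate 3 was again the lowest, at 119.9 FPKM. PTZ+Q808 differed from control by -0.09 ± 0.12 (log2, SE), and by -0.01 without that library. PTZ differed from control by -0.01 ± 0.12 and PTZ+Q808 from PTZ by -0.08 ± 0.11, with adjusted p of 0.991 and 0.938 by limma, against 0.724 for PTZ+Q808 versus control.

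**Figure D2:**
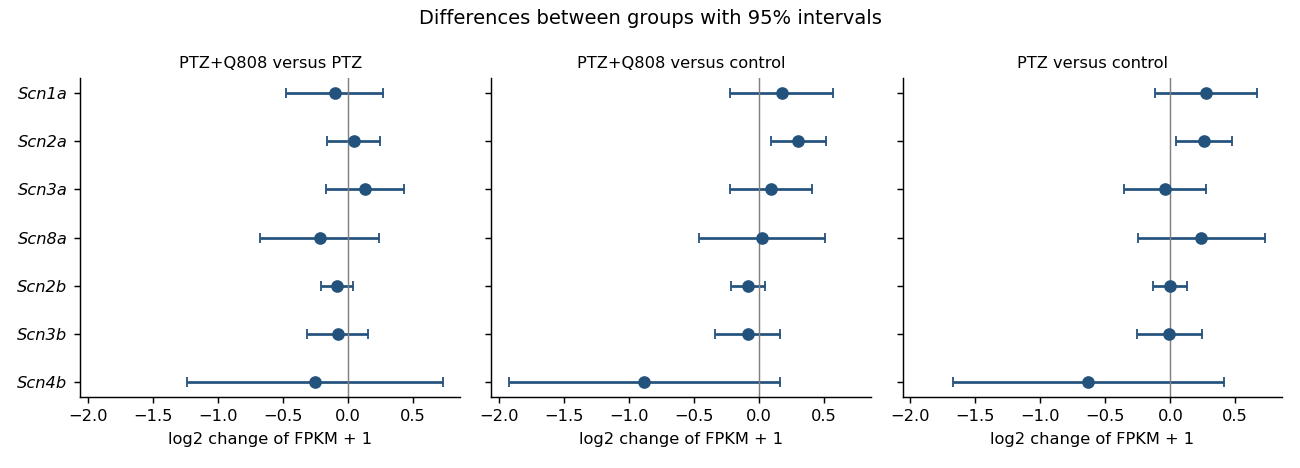
Log2 change of FPKM + 1 for each subunit in the 3 comparisons (x axis), with points for the difference of group means and bars for 95% intervals from limma over 12744 genes. The intervals of Scn2a lie above 0 in both comparisons with control before adjustment over all genes, and those of Scn4b are the widest.

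Counted together, 0 of 7 members passed in PTZ+Q808 versus control, PTZ versus control and PTZ+Q808 versus PTZ by limma, where 2.87%, 0.0314% and 0% of the 12744 genes passed. An unadjusted p under 0.05 was reached by Scn2a alone in PTZ+Q808 versus control (20.7% of all genes) and in PTZ versus control (8.11%), and by 0 members in PTZ+Q808 versus PTZ (6.14%). In the same order, 8.91%, 3.03% and 0.777% of all genes had groups that did not overlap, and 0 members did in each. The median log2 change of the members was 0.02 in PTZ+Q808 versus control, beside -0.02 over all genes tested. It was -0.003 in PTZ versus control, beside -0.01, and -0.08 in PTZ+Q808 versus PTZ, beside -0.004.

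Scn4b encodes a beta subunit known for high expression in striatal neurons and in fast-firing cells. It had 10.7, 8.89, 6.91, 9.43 and 8.78 FPKM in PTZ+Q808 replicates 1 to 5, and 11.6, 9.68, 11.7, 8.59 and 12.6 FPKM in PTZ. The controls had 8.88, 89.1, 10.1 and 10.1 FPKM in replicates 1 to 4. Control replicate 2 was 7.05 times the highest of the other 13 libraries, and the other controls lay within the PTZ range. All 9 striatum markers were highest in the same library, with a summed level of 733 FPKM there and 63.0 to 129 FPKM elsewhere. Among them, the dopamine receptor transcript Drd2 had 29.4 FPKM there against 1.12 to 2.43 in the rest, and Ppp1r1b, the phosphoprotein of dopamine-responsive neurons, had 240.5 against 28.4 to 39.4. With this library, Scn4b was -0.89 ± 0.49 in PTZ+Q808 versus control and -0.63 ± 0.49 in PTZ versus control (log2, SE, adjusted p = 0.322 and 0.749 by limma). Without it the values were -0.12 (adjusted p = 0.661) and 0.14 (adjusted p = 0.815), so the direction in PTZ versus control turned. Without control replicate 2 the control mean was 9.70 ± 0.713 FPKM (SD, n = 3), beside 8.94 ± 1.36 in PTZ+Q808 (n = 5) and 10.8 ± 1.66 in PTZ (n = 5). PTZ+Q808 differed from PTZ by -0.25 ± 0.46 (SE, adjusted p = 0.956), a comparison without that library except through the shared estimate of the spread.

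**Figure D3:**
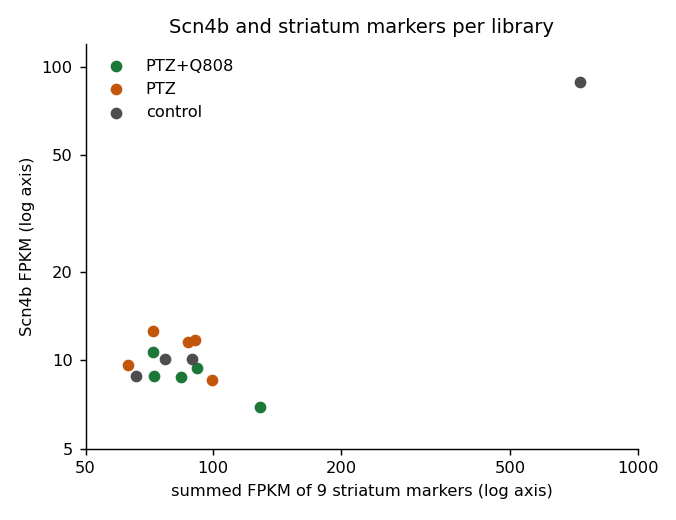
Scn4b FPKM against the summed FPKM of 9 striatum markers, both on log axes, with 1 point per library of PTZ+Q808, PTZ and control. Control replicate 2 stands alone at 733 FPKM of striatum markers and 89.1 FPKM of Scn4b, while the other 13 libraries lie at 6.91 to 12.6 FPKM.

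The 4 alpha subunits can be read as parts of a sum, which is given as a description with no test. Their summed level was 94.3 ± 19.9 FPKM in PTZ+Q808 (SD, n = 5), 98.1 ± 16.3 in PTZ (n = 5) and 81.8 ± 7.09 in control (n = 4). It ran from 68.7 to 115 FPKM in PTZ+Q808, from 74.8 to 117 in PTZ and from 76.8 to 92.3 in control. Scn2a made up 49.8 ± 5.59% of the sum in PTZ+Q808, 46.0 ± 3.48% in PTZ and 45.4 ± 1.74% in control. Scn8a made up 38.1 ± 5.15%, 42.3 ± 3.85% and 42.3 ± 2.15% in the same order of groups. Scn1a contributed 6.39 to 9.02% and Scn3a 2.49 to 5.54% over the 14 libraries. PTZ+Q808 replicate 2 had the highest share of Scn2a (58.7%) and the lowest of Scn8a (29.6%), a ratio of 1.98 between the transcripts, where the other 13 libraries ran from 0.915 to 1.34. Its depth was also the lowest of the 14, at 0.858 of control replicate 1, and its part in these shares was not tested.

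**Figure D4:**
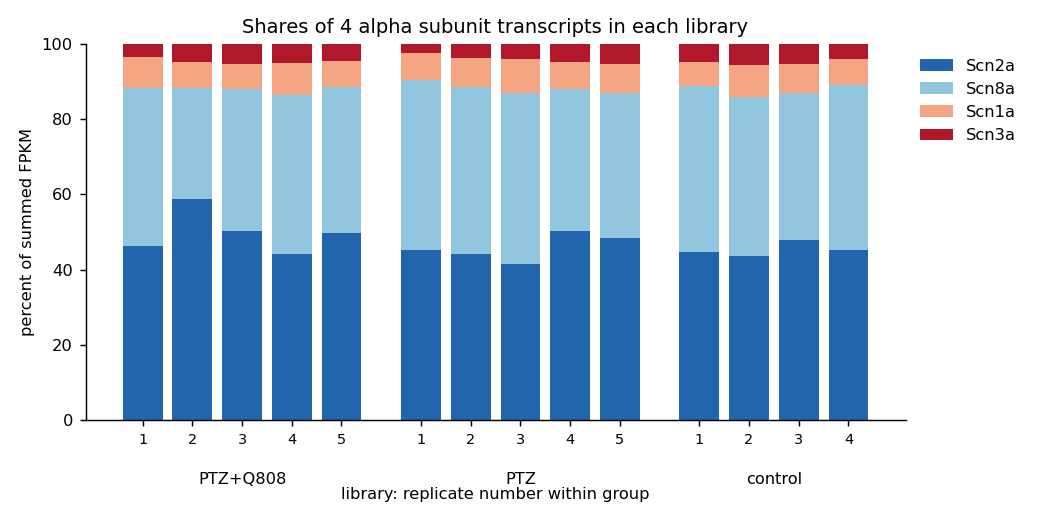
Share of each of 4 alpha subunit transcripts in their summed FPKM (percent, y axis), with 1 stacked bar per library of PTZ+Q808, PTZ and control. Scn2a and Scn8a together fill most of every bar, and PTZ+Q808 replicate 2 has the highest share of Scn2a at 58.7%.

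Deviations from group means showed which members varied together, over 21 pairs with p from a two-sided permutation test of 100000 resamples and Benjamini-Hochberg adjustment. The resamples moved deviations between groups of unlike spread and made no allowance for the group means taken out, so these p can be too small. Scn1a and Scn8a had Pearson r = 0.89 (p = 2e-05, adjusted p = 0.00042) and Spearman rho = 0.89 (p = 4e-05, adjusted p = 0.00084) over the 14 libraries by permutation. Scn2a and Scn8a had r = 0.84 (p = 0.00016, adjusted p = 0.00168) and rho = 0.85 (p = 0.00021, adjusted p = 0.0022), and Scn1a and Scn2a had r = 0.75 (p = 0.00211, adjusted p = 0.0148) and rho = 0.75 (p = 0.0026, adjusted p = 0.0182). Without the 2 libraries farthest from the median of the first gene, r was 0.83, 0.79 and 0.65 for these pairs. With group means left in, r was 0.88, 0.68 and 0.73, and the second of these did not pass (adjusted p = 0.051 by permutation). The other 18 pairs did not pass, the smallest adjusted p for r being 0.323. The neighbouring genes Scn2a and Scn3a had r = 0.29 (permutation p = 0.311, adjusted p = 0.762) and Scn2b and Scn4b had r = 0.13 (permutation p = 0.611, adjusted p = 0.817).

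PTZ+Q808 replicates 2 and 5 and PTZ replicates 4 and 5 were below their group means in Scn1a, Scn2a and Scn8a, while PTZ+Q808 replicates 1 and 4, PTZ replicate 2 and control replicate 4 were above them in all 3. The 3 pairs were also read in subsets of libraries. At least 3 Y-linked transcripts reached 1 FPKM in 8 libraries, spread over the 3 groups. Within these 8, r was 0.90, 0.87 and 0.77 for Scn1a with Scn8a, Scn2a with Scn8a and Scn1a with Scn2a, and within the other 6 it was 0.89, 0.82 and 0.72. Without the 3 libraries low in Ttr it was 0.87, 0.81 and 0.68 (n = 11), and without PTZ+Q808 replicate 2 it was 0.86, 0.84 and 0.71 (n = 13). The summed level of 5 excitatory neuron markers was 1294 and 1585 FPKM in PTZ+Q808 replicates 2 and 5 and 1490 and 1574 in PTZ replicates 4 and 5. In the libraries above their means it was 1614 and 1659 FPKM in PTZ+Q808 replicates 1 and 4, 1725 in PTZ replicate 2 and 1704 in control replicate 4. PTZ replicate 1, at 1475, was the lowest PTZ library in these markers, and its Scn8a was above the group mean. The 5 general neuronal markers went the other way. Their summed level was 1625 and 1721 FPKM in PTZ+Q808 replicates 2 and 5 and 1664 and 1580 in PTZ replicates 4 and 5. It was 1619 and 1538 FPKM in PTZ+Q808 replicates 1 and 4, 1577 in PTZ replicate 2 and 1421 in control replicate 4. Over the libraries below their means in all 3 genes, the FPKM sum per library ran from 399133 to 419358. Over those above, it ran from 383126 to 393986. The part of this sum, of neuronal content, and of RNA quality for these long transcripts, was not tested. How many other gene pairs vary as closely was not computed.

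**Figure D5:**
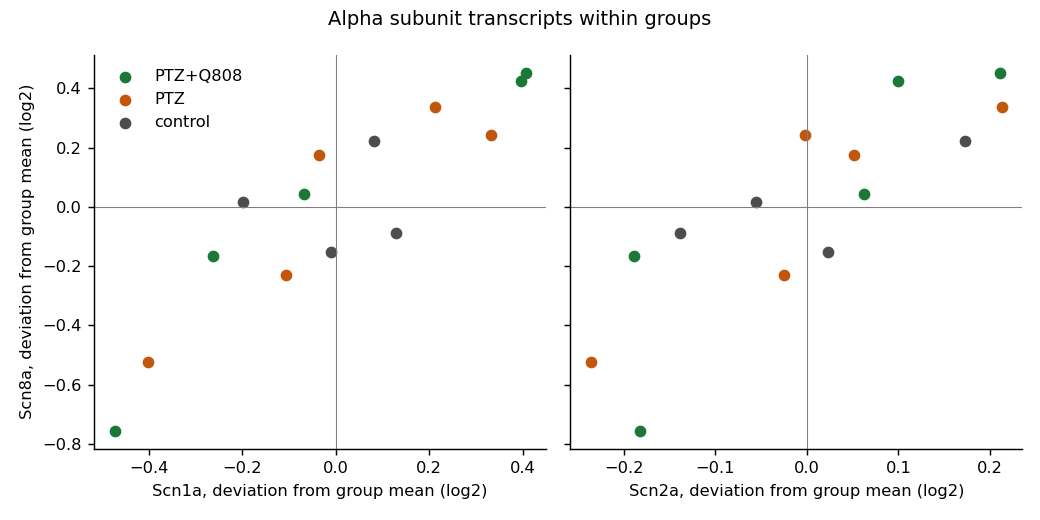
Deviation of Scn8a from its group mean (y axis, log2) against that of Scn1a (left) and Scn2a (right), with 1 point per library of PTZ+Q808, PTZ and control. The points rise together, with r = 0.89 and r = 0.84 over 14 libraries, and PTZ+Q808 replicate 2 lies lowest in Scn8a.

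Genes most like each member over the 14 libraries were found among the 12744 by Pearson r of log2 values, as a description. For Scn8a they were Slc4a8 (r = 0.98), Arfgef3 (0.98) and Kif1b (0.97). Slc4a8, which encodes a sodium-coupled bicarbonate transporter, is the protein-coding neighbour of Scn8a on chromosome 7. It had 9.81, 3.88, 7.26, 10.01 and 5.48 FPKM in PTZ+Q808 replicates 1 to 5, 9.26, 10.8, 10.4, 5.79 and 6.62 FPKM in PTZ and 6.79, 5.97, 6.05 and 9.34 FPKM in control. Genes like Scn1a included RGD1306271 (0.95) and the potassium channel gene Kcna2 (0.94), and Scn2a was most like the potassium channel gene Kcnb2 (0.94), Gnl3l (0.92) and Bicd1 (0.91). For Scn3a the genes were Zc3h8 (0.76), Ift88 (0.71) and RGD1310429 (0.70). Scn2b was most like Zfp84 (0.87), Ablim3 (0.87) and Ccnjl (0.86), and Scn3b was most like Nrip3, Pou3f1 (0.90 each) and Klhl2 (0.88). Scn4b was most like Rasd2 (0.98), Ppp1r1b (0.95) and Syndig1l (0.94), the last 2 of which are among the striatum markers. These likenesses share the libraries, and those of Scn4b rest on control replicate 2.

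Nalcn, the sodium leak channel, had 24.9 ± 1.66 FPKM in PTZ+Q808 (SD, n = 5), 23.8 ± 2.19 in PTZ (n = 5) and 21.4 ± 0.439 in control (n = 4). Its level was 0.21 ± 0.07 higher in PTZ+Q808 than in control without passing (log2, SE, adjusted p = 0.0989 by limma). Those groups did not overlap, as for 8.91% of all genes. It did not pass in the other comparisons either. The muscle and sensory neuron genes Scn4a, Scn9a, Scn10a and Scn11a, and Scn7a, did not reach 1 FPKM in 4 libraries and were not tested. The highest value among these 5 genes was 0.775 FPKM, for Scn9a.

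The partners of these channels were read from 40 genes in 4 lists, all of them tested. In PTZ+Q808 versus control 3 rose and 1 fell, where 1.94% of all genes rose and 0.934% fell. Fgf12, an intracellular fibroblast growth factor homologous factor that binds the tail of alpha subunits, rose to 36.2 ± 2.15 FPKM (SD, n = 5) in PTZ+Q808, against 25.4 ± 2.45 (n = 4) in control, a log2 change of 0.50 ± 0.09 (SE, adjusted p = 0.0204 by limma). Celf4, an RNA-binding protein whose loss causes seizures in mice, rose to 103 ± 6.33 FPKM, against 79.9 ± 3.802 in control (0.36 ± 0.07, adjusted p = 0.0226 by limma). Nrcam, an adhesion molecule of initial segments and nodes, rose to 68.4 ± 3.13 FPKM, against 56.6 ± 4.60 in control (0.27 ± 0.07, adjusted p = 0.048 by limma). Trim46, which bundles microtubules in the proximal axon, fell to 19.5 ± 0.669 FPKM, against 24.1 ± 0.607 in control (-0.30 ± 0.05, adjusted p = 0.0204 by limma). The PTZ+Q808 and control libraries did not overlap for any of these 4 genes, as for 8.91% of all genes. All 4 calls ended without control replicate 1 (adjusted p = 0.0717 for Fgf12, Celf4 and Trim46 and 0.11 for Nrcam) or without PTZ+Q808 replicate 1 (0.0543 for these 3 and 0.109 for Nrcam). They also ended without the 3 libraries low in Ttr (0.145 for Fgf12, Celf4 and Trim46 and 0.179 for Nrcam), where log2 changes were 0.53, 0.39, -0.29 and 0.25 in the order Fgf12, Celf4, Trim46 and Nrcam. Leaving out PTZ+Q808 replicate 5 ended all 4 calls, with adjusted p from 0.0504 to 0.108. Leaving out control replicate 3 ended those of Celf4, Trim46 and Nrcam (0.0515, 0.052 and 0.0933), and leaving out control replicate 4 or PTZ+Q808 replicate 3 those of Celf4 (0.0616 and 0.0513) and Nrcam (0.0695 and 0.0859). The call of Nrcam ended as well without control replicate 2, PTZ replicate 4, PTZ replicate 5 or PTZ+Q808 replicate 4 (adjusted p = 0.0511 to 0.0972).

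By list, 1 of 4 fibroblast growth factor homologous factors rose in PTZ+Q808 versus control, with a median log2 change of 0.14. Among 12 initial segment and node genes 1 rose and 1 fell (median -0.03), among 14 modifiers and traffickers 0 passed (0.06), and among 10 regulators of sodium channel transcripts 1 rose (0.04). The median over all genes was -0.02. In this comparison 14 of the 40 had an unadjusted p under 0.05 by limma (20.7% of all genes). In PTZ versus control 0 of the 40 passed by limma, and 7 had an unadjusted p under 0.05 (8.11% of all genes). The smallest p were those of Fgf12 (31.5 ± 4.01 FPKM in PTZ, SD, n = 5, log2 change 0.30, adjusted p = 0.431 by limma), Nrcam (0.21, 0.478), Fgf14 (0.19, 0.514) and Trim46 (-0.15, 0.526). In PTZ+Q808 versus PTZ 0 of the 40 passed by limma and 6 had an unadjusted p under 0.05 (6.14% of all genes), with values of 0.25 for Celf4, -0.15 for Trim46, 0.22 for the phosphatase gene Ptprz1 and -0.25 for the adhesion gene Cntn2, each at an adjusted p of 0.76 by limma. For Fgf12 the 3 group means stood at 36.2 FPKM in PTZ+Q808, 31.5 in PTZ and 25.4 in control. PTZ+Q808 differed from PTZ by 0.20 ± 0.08 (log2, SE, adjusted p = 0.76 by limma).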

How the data were processed

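The values are FPKM per gene and library, computed by the authors and deposited as 1 table per sample. Tools named in the submitters' processing notes, without role or version, include HISAT2, Bowtie2, Cufflinks, StringTie and HTSeq, and the build and strand handling are not given in the sources used here. Libraries used mRNA capture beads, per the labels' protocols. A gene's isoforms are summed, so alternative exons of the alpha subunits cannot be separated.

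The 12744 genes that reached 1 FPKM in 4 or more libraries were tested as log2(FPKM + 1) in limma 3.58.1 (R 4.3.3) with a mean-dependent prior variance, all 3 groups in 1 fit with 11 residual degrees of freedom. Tests were two-sided, with Benjamini-Hochberg adjustment over all genes and a threshold of 0.05. Log2 changes understate those of low genes. The fit was run on simulated data with independent noise per gene and planted changes. That simulation lacks the shared variation and outlying libraries of these data, so it does not bear on the calls. All 7 members were named, with the 3 most similar genes each and, of 40 partner genes, every called gene or the 4 of smallest p. Some genes that this rule names are not reported here. Members, lists and some alternatives were chosen with earlier results of these data known. Replicates are separate samples per the labels, and the design text speaks of rats per group. Correlations used numpy 2.4.6 and figures matplotlib 3.10.9. Alternatives concern the pseudocount, filter, scaling, weights, block, covariate and libraries.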

Additional observations from a re-analysis of the deposited data

Results flagged for a closer look

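A library far from the others of its group was sought in 36 sets of values, where chance gives about 1 in 20, and 3 were found. Scn4b was 89.1 FPKM in control replicate 2, against 8.88 to 10.1 FPKM in the other controls. This library was also highest in all 9 striatum markers. The share of Scn1a in the summed alpha subunits was 9.02% in PTZ replicate 3, against 7.07 to 7.59% in the other PTZ libraries. The summed level of the 4 alpha subunits was 92.3 FPKM in control replicate 4, against 76.8 to 79.4 FPKM in the other controls, and the 5 PTZ libraries ran from 74.8 to 117 FPKM.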

How the results depend on the processing

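In each of the 3 comparisons 0 of the 7 members passed in all 28 alternatives run, which include another pseudocount, 2 other filters, 3 scalings, weights, a term or subset for Y-linked transcripts and leaving out each library. The smallest adjusted p of Scn2a in PTZ+Q808 versus control over these was 0.0586 by limma, and its log2 change ran from 0.14 to 0.44. In PTZ versus control the log2 change of Scn2a was 0.44 within the libraries with Y-linked transcripts and 0.04 within those without. Of 585 values of a member under an alternative, 30 had the other sign and none of these passed. The replicate number was shared between groups, but nothing in the labels says that it pairs animals. Deviations of same-numbered libraries correlated at -0.28 to 0.14, and 0 of 14 libraries correlated best with their own number. Such weak correlation cannot show that animals were not paired. With the replicate block 0 members passed, and the 4 partner calls in PTZ+Q808 versus control ended (adjusted p from 0.0701 to 0.142). Celf4 was called in 18, Fgf12 in 21, Trim46 in 20 and Nrcam in 9 of 28 alternatives, each with the same direction throughout. Over all genes, calls in PTZ+Q808 versus control numbered 366, but 199 with only those groups fitted, 190 without a filter, 4 with the block, 1100 with weights per library, 564 with a Y-linked term, 0 and 5 within the Y-linked subsets, 0 without the libraries low in Ttr and 17 to 673 with each library left out. A minimum of 5 FPKM left Scn3a untested. The pooled correlation of Scn2a and Scn8a was 0.68, against 0.84 for deviations. The subsets by Y-linked transcripts were chosen after the data were seen. Absolute depth is unknown, so what it limits for the members cannot be given.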
